A study of Homo sapiens with 2 samples.

Results

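The genes described here are 10 human genes of the oncofetal and let-7 programme, namely the chromatin proteins HMGA1 and HMGA2, the RNA-binding proteins IGF2BP1, IGF2BP2 and IGF2BP3, the let-7 inhibitor LIN28B, the deubiquitinase YOD1, the zinc finger factor PLAGL2 and the cell cycle genes CDC25A and E2F5. They are 10 of the 19775 genes that the array's annotation names, and all 30 probe sets annotated to a member alone were taken, of 41091 that name 1 gene. The set was chosen from knowledge of the pathway with the signal ratios of these same arrays in view, so the ratios below are a description and support nothing by themselves. RNA came from the human cell line HT-29, established from a colorectal adenocarcinoma, at 72 h after transfection. The baseline cells received an siRNA against firefly luciferase (siLuc), which these cells lack, and the others an siRNA against human IFITM1 (siIFITM1), an interferon-induced membrane protein. Each siRNA has 1 sample on 1 array, 1 siRNA was used per target, and the labels name no replicate culture, so the error between replicates is unknown and no test was possible.

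Let-7 is a family of small RNAs that is scarce in the embryo and abundant in differentiated tissue. It pairs through its seed, bases 2 to 8, with sites in messenger RNAs and lowers them. HMGA2, which bends DNA through its AT-hooks, the IGF2BP proteins, which bind and stabilise messenger RNAs, and LIN28B, which blocks the maturation of let-7 precursors, are fetal genes among its best known targets, and several of them are made again in tumours, colorectal carcinoma included. YOD1, PLAGL2, CDC25A and E2F5 are listed as let-7 targets as well, while HMGA1 is the close relative of HMGA2.

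The mature sequences of the family are shown because the seed they have in common is what defines a let-7 target. They are given 5′ to 3′ from RefSeq (GRCh38.p14), with the seed in capitals.
let-7a-5p: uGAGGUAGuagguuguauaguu
let-7b-5p: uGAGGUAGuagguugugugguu
let-7c-5p: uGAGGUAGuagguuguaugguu
let-7d-5p: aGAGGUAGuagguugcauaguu
let-7e-5p: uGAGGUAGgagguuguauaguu
let-7f-5p: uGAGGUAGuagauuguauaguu
let-7g-5p: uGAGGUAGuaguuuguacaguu
let-7i-5p: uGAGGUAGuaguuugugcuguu
miR-98-5p: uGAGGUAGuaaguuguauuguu
The 9 sequences come from 12 loci, and the seed GAGGUAG was the same in each. Outside the seed they differed from let-7a-5p at 1 to 4 of 22 positions, with let-7i-5p the furthest at 4. Only 2 other human mature miRNAs of the 2370 in the table, miR-4458 and miR-4500, carried this seed. The levels of mature let-7 were not analysed here. A single probe set was annotated to a let-7 locus, MIRLET7D, and its signal was 360 with siLuc and 378 with siIFITM1 (log2 ratio 0.07). It was picked out after its value was seen.

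Values are MAS5 signals in arbitrary units, and every log2 ratio is siIFITM1 over siLuc. A probe set passed the filter if its mean log2 signal over both arrays was at or above the median of all probe sets, a signal of 57.4. It is called brighter from the 75th percentile up (a signal of 393) and dimmer between these limits. The yardstick for a ratio is how far probe sets that read 1 gene disagree, as the pooled SD of their log2 ratios over the whole array, which was 0.193 for brighter and 0.496 for dimmer probe sets. It measures disagreement between probe sets on the same pair of arrays and not variation between cultures. Of the 30 member probe sets 23 passed the filter, 10 of them brighter. Signals of different probe sets are not compared with one another, since each has its own response.

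**Figure D1:**
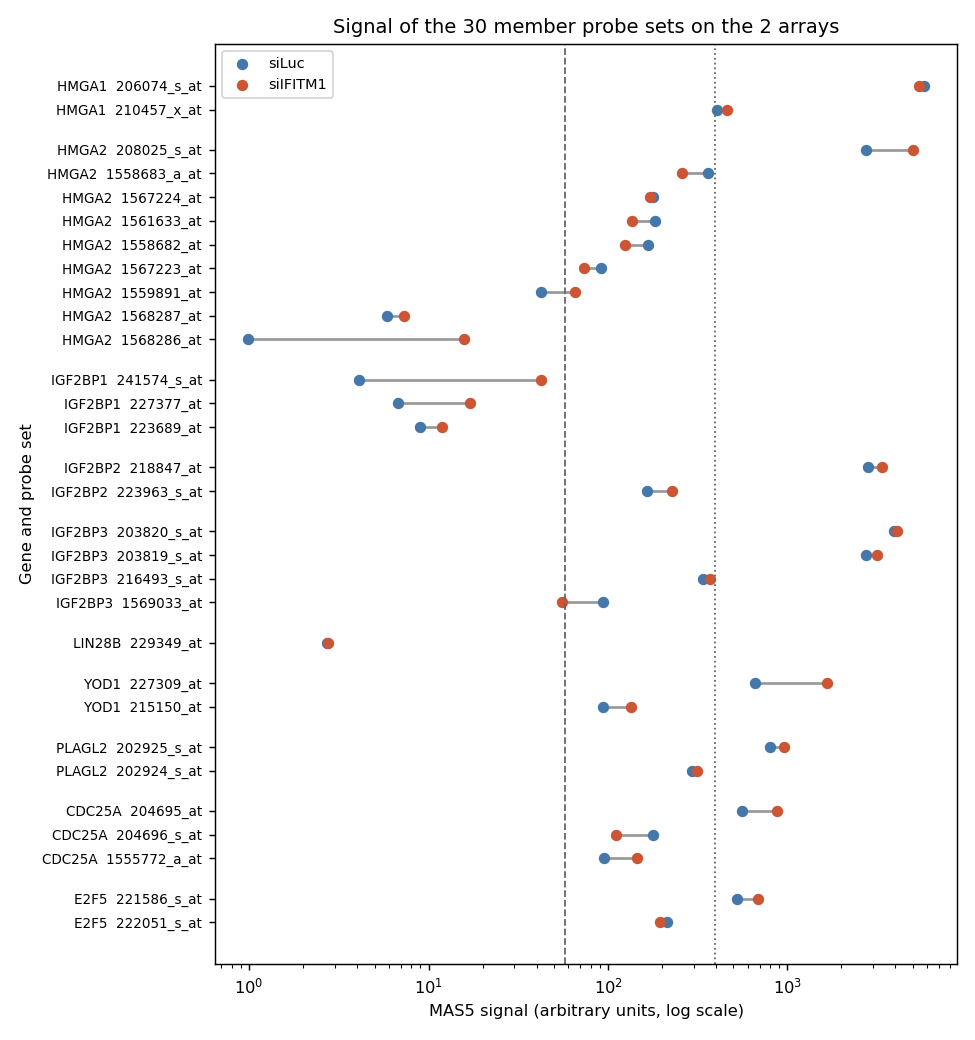
MAS5 signal of all 30 member probe sets (log scale) with siLuc (blue) and siIFITM1 (orange), grouped by gene, with the filter at 57.4 dashed and the limit for brighter probe sets at 393 dotted. The widest gaps among the brighter probe sets are those of YOD1 (from 663 to 1663) and HMGA2 (from 2744 to 4986), while the other HMGA2 probe sets past the filter shift to the left.

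Of the HMGA genes, HMGA2 had the higher ratio and HMGA1 was nearly level. The brightest HMGA2 probe set, 208025_s_at, designed on the RefSeq transcript NM_003483, gave 2744 with siLuc and 4986 with siIFITM1. That is a log2 ratio of 0.86, or 1.82-fold, more than the yardstick of 0.193 for brighter probe sets, and 31 of the 7793 brighter genes had a larger ratio. The other 5 HMGA2 probe sets past the filter were all dimmer and all lower with siIFITM1. Probe set 1558683_a_at went from 359 to 257 (log2 ratio -0.48), and 1558682_at, designed on the same expressed sequence tag AI990940, from 168 to 124 (-0.44). Probe set 1561633_at went from 184 to 136 (-0.44). The pair designed on U29113 had log2 ratios of -0.32 (from 91.3 to 73.2) and -0.07 (from 179 to 171). Each of these 5 ratios was within the yardstick of 0.496 for dimmer probe sets, although their common sign was opposite to that of the brightest. The ID of 208025_s_at ends in _s_at, which marks probes that other transcripts may share, and where along the HMGA2 transcripts each probe set lies was not analysed here. The higher HMGA2 value thus rested on 1 probe set. The range of 1.34 between the highest and lowest ratio was matched or exceeded by 20 of the 120 genes that also had 6 probe sets past the filter (16.7%). The 3 remaining HMGA2 probe sets, below the filter, had signals of at most 65.6.

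HMGA1, which encodes the AT-hook protein abundant in many carcinomas, had a signal of 5744 with siLuc and 5435 with siIFITM1 at its brightest probe set (log2 ratio -0.08). Its other probe set went from 404 to 461 (log2 ratio 0.19). Both ratios lay within the yardstick of 0.193, and their signs differed. Both probe set IDs carry an ending for shared probes.

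Among the IGF2BP genes, IGF2BP2 and IGF2BP3 gave strong signals on both arrays and IGF2BP1 was near the bottom of the signal range. IGF2BP2 went from 2809 to 3350 at its brightest probe set (log2 ratio 0.25, or 1.19-fold). Its dimmer probe set went from 166 to 228 (0.46), so both were higher with siIFITM1, the first by slightly more than the yardstick of its class and the second by less. IGF2BP3 gave 3927 and 4090 at one brighter probe set (log2 ratio 0.06) and 2735 and 3143 at the other (0.20). A dimmer IGF2BP3 probe set went from 339 to 371 (0.13). The dimmest past the filter, 1569033_at, had the opposite sign, from 93.9 to 55.3 (log2 ratio -0.76), and the latter signal was below the filter floor of 57.4. For IGF2BP3 3 of 4 probe sets were therefore higher with siIFITM1, by amounts near or within the yardstick.

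The 3 IGF2BP1 probe sets had siLuc signals of 4.11, 6.73 and 9.01 and siIFITM1 signals of 42.2, 17.0 and 11.9 in the same order. All 6 values were below the filter floor, so no fold is given. The LIN28B probe set gave 2.71 and 2.75, again below the floor on both arrays. Detection calls were not used here, and signals this low do not show that a transcript is absent. Thus of the fetal let-7 targets named above, HMGA2, IGF2BP2 and IGF2BP3 were measurable in HT-29 at this filter, and IGF2BP1 and LIN28B were not. HMGA1 was measurable as well.

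YOD1, which encodes a deubiquitinase of the OTU family that works with the p97 ATPase, had the largest ratio of the members. Its brightest probe set, 227309_at, went from 663 with siLuc to 1663 with siIFITM1, which is 2.51-fold and a log2 ratio of 1.33. Of the 7793 brighter genes 2 had a larger ratio. The dimmer YOD1 probe set went from 93.4 to 134 (log2 ratio 0.52), also higher and just above the yardstick of 0.496 for its class. Neither ID carries an ending for shared probes. The probe sets had the same sign but differed by 0.80 in size, and 11.7% of the 3290 genes with 2 probe sets past the filter had a gap as large.

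PLAGL2, a zinc finger transcription factor amplified in some colorectal tumours, had small ratios of the same sign at both probe sets. Its signal went from 802 to 954 at the brighter one (log2 ratio 0.25) and from 292 to 312 at the dimmer one (0.09). The first is above and the second within the yardstick of its class.

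The cell cycle members had higher brightest probe sets and mixed probe sets behind them. CDC25A, the phosphatase that activates the kinases of S phase entry, went from 561 to 870 at 204695_at (log2 ratio 0.63, or 1.55-fold). Probe set 1555772_a_at was higher by nearly the same ratio, from 94.6 to 145 (0.62). Probe set 204696_s_at, designed on the RefSeq transcript NM_001789, was lower, from 177 to 111 (log2 ratio -0.68). Each of the 3 ratios exceeded the yardstick of its class, and 1 pointed the other way. The range of 1.31 was reached by 79 of the 1623 genes with 3 probe sets past the filter (4.87%). E2F5, an E2F factor that acts with the retinoblastoma relatives as a repressor, went from 525 to 683 at its brighter probe set (log2 ratio 0.38, or 1.30-fold). Its dimmer probe set went from 212 to 194 (-0.13), within its yardstick and of opposite sign.

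**Figure D2:**
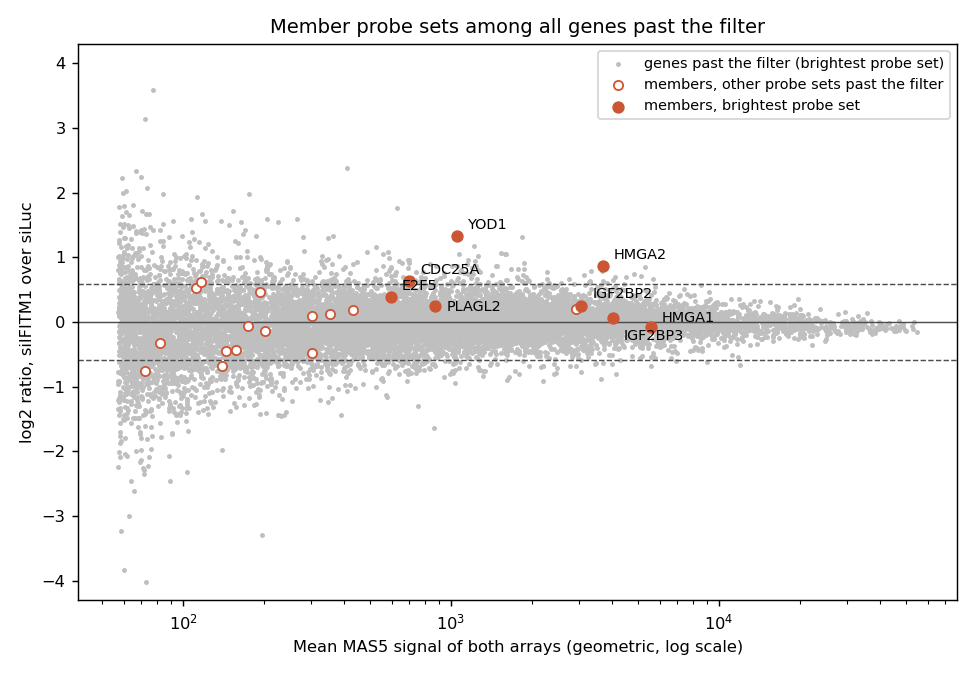
Log2 ratio of siIFITM1 over siLuc against the mean MAS5 signal (log scale) for the 12225 genes past the filter (grey, brightest probe set), with the brightest member probe sets filled and their other probe sets past the filter open. Dashed lines mark 1.5-fold. YOD1 (1.33) and HMGA2 (0.86) lie at the upper edge of genes of similar signal, and the open points below 0 lie among the dimmer genes, where the spread is wide.

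By brightest probe set, 8 of the 10 members passed the filter, and all 8 were brighter genes. Of these, 7 had a ratio above 0 and HMGA1 was below it. Over all genes past the filter 47.4% were above 0, and over brighter genes 50.5%. YOD1, HMGA2 and CDC25A were at least 1.5-fold higher, where 4.18% of all genes past the filter and 1.86% of brighter genes were. YOD1 alone was at least 2-fold higher, against 1.01% and 0.18%. No member was at least 1.5-fold lower, against 7.34% and 1.77%. The median log2 ratio was 0.32 over the 8 members and -0.02 over all genes past the filter. Because the members were chosen with these ratios known, nothing is read from the gap between their counts and these shares.

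Agreement between probe sets was mixed. Of the 8 members with several probe sets past the filter, IGF2BP2, YOD1 and PLAGL2 had all of them in 1 direction. Over the array 48.4% of 6087 such genes did. Of the 23 member probe sets past the filter 14 were above 0, where 47.9% of all single-gene probe sets past the filter were. Among the 10 brighter member probe sets 9 were above 0, where 50% of all brighter single-gene probe sets were. Among the 13 dimmer ones 5 were above 0, where 45.6% of all dimmer ones were. All 7 below the filter were higher with siIFITM1, where 46.6% of all those below it were, from siLuc signals of 0.99 to 42.1. That is a range in which MAS5 signals may be background. Of the 30 probe sets 13 carry an ending for shared probes.

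**Figure D3:**
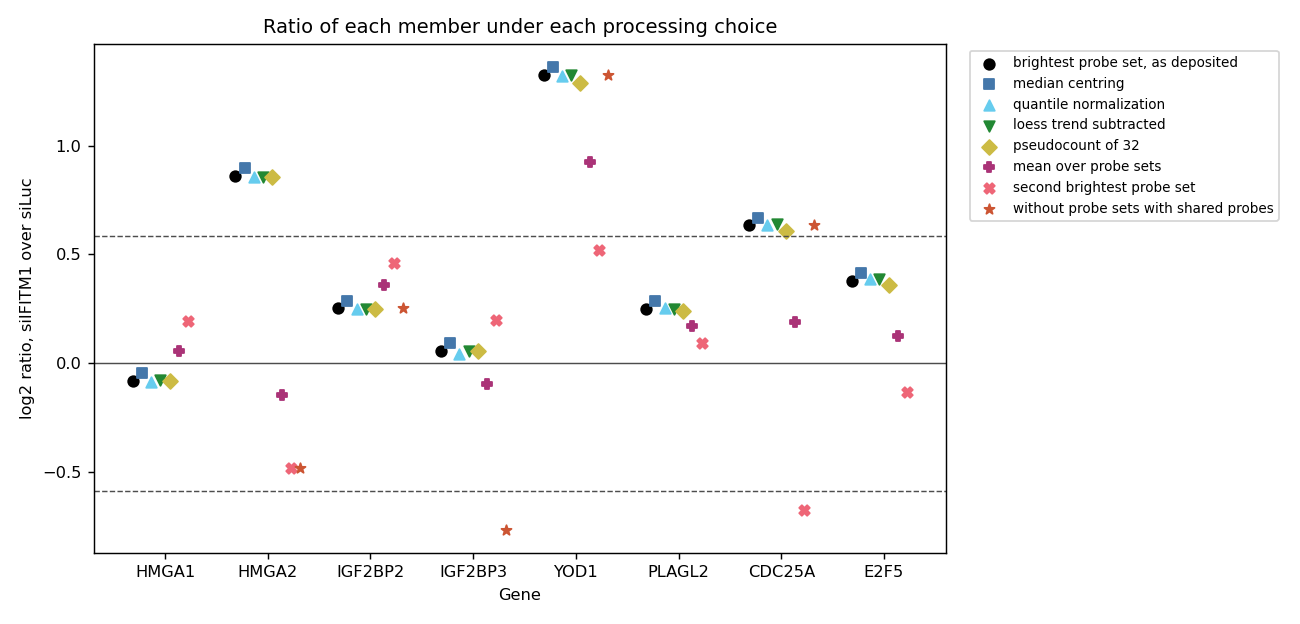
Log2 ratio of siIFITM1 over siLuc for each of the 8 members past the filter under each processing choice, with dashed lines at 1.5-fold. Scaling choices shift each gene little, whereas the choice of probe set moves HMGA2 from 0.86 to -0.48 and CDC25A from 0.63 to -0.68, and leaves YOD1 above 0 (0.52 to 1.33).

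The choice of probe set decided the value for HMGA2 and CDC25A. Averaged over the probe sets past the filter, HMGA2 was at -0.15, CDC25A at 0.19 and E2F5 at 0.12, while YOD1 was at 0.92. Counted this way, 1 member, YOD1, was at least 1.5-fold higher and none was 2-fold higher. The share of all genes was not computed by this measure. Without probe sets marked for shared probes HMGA2 was at -0.48 and IGF2BP3 at -0.76, YOD1 and CDC25A kept their values, and HMGA1, PLAGL2 and E2F5 had no probe set left.

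Related genes were taken from lists written with earlier results of these arrays known. They are described with no test. Of 41 other genes reported as let-7 targets, 35 were on the array with a probe set of their own, 29 passed the filter, and the other 6 of the list were not analysed here. Among the 29, 19 were above 0 and 10 below, against 47.4% above 0 over all genes past the filter, with a median log2 ratio of 0.17. PLAG1, the paralogue of PLAGL2, was at 0.61 on 1 dimmer probe set (from 153 to 234), and the DNA repair gene ERCC6 was at 0.65 (from 156 to 245) with its other probe set at -0.02. By brightest probe set those 2 were the genes at least 1.5-fold higher, against 4.18% of all genes past the filter. The nuclear receptor gene NR6A1 was the only gene at least 1.5-fold lower by that measure, against 7.34% of all genes past the filter. It went from 83.4 to 47.7 (under the filter floor). Its other probe set past the filter had a ratio of 1.12, from 40.6 (also under the floor) to 88.6. Both IDs carry an ending for shared probes. Further dimmer probe sets past the filter were beyond 1.5-fold for INSR (1.47 and 0.66), IGF1R (1.08) and CDK6 (0.66 and -0.76). ERCC6, NR6A1, INSR, IGF1R and CDK6 fell outside the naming rule and were named after their values were seen. Among the 21 brighter genes 14 were above 0, against 50.5% of all brighter genes, with a median of 0.19. E2F6, an E2F repressor, went from 1106 to 1647 (0.57), the receptor gene TGFBR1 from 798 to 1062 (0.41) and ARID3A from 398 to 505 (0.34).

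Among genes that make or regulate let-7, 15 of 17 listed passed the filter. By brightest probe set none of the 15 was 1.5-fold apart in either direction. Over all genes past the filter 4.18% were at least that much higher and 7.34% lower. Of the 15, 12 were above 0, against 47.4% of all genes past the filter, with a median of 0.10. The highest was DICER1, which encodes the enzyme that cuts let-7 precursors, from 937 to 1313 (0.49). Its other probe sets past the filter were at 0.66, 0.34 and -0.47, so it fell outside the naming rule and was named after its values were seen. Dimmer probe sets past the filter were also beyond 1.5-fold for KHSRP (1.32), TNRC6B (0.75), MSI2 (-0.88) and TNRC6A (-0.96). These genes were outside the naming rule as well and were named after their values were seen. TUT4, the enzyme that adds uridines to let-7 precursors, went from 259 to 327 (0.34). The Argonaute gene AGO2 was at 0.28, XPO5, which exports precursors from the nucleus, at 0.27 with all 3 probe sets higher, and AGO1 at 0.12. LIN28A, the relative of LIN28B, was below the filter. Of 8 transcripts that carry or adjoin let-7 genes, 4 passed. WDR82, which hosts let-7g, went from 2761 to 3471 (0.33). HUWE1, which hosts let-7f-2 and miR-98, went from 48130 to 46253 (-0.06) at its brightest probe set, whose ID carries an ending for shared probes. The other HUWE1 probe sets past the filter went from 1763 to 1622 (-0.12) and from 151 to 125 (-0.27). SPACA6, beside let-7e, was at -0.35. MIRLET7BHG, which carries let-7a-3 and let-7b, was at 0.41 and -0.31 at its probe sets, both dimmer.

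Of 9 other oncofetal genes, 3 passed the filter, 4 (DLK1, DPPA4, GPC3 and SALL4) were below it, and H19 and IGF2 were not analysed here. The alpha-fetoprotein gene AFP had a signal of 110 with siIFITM1 and 33.8 with siLuc, the latter under the floor, so no ratio is given. It was still the 1 gene of the 3 counted as at least 1.5-fold and 2-fold higher. Over all genes past the filter 4.18% and 1.01% were. None of the 3 was at least 1.5-fold lower, against 7.34%. PEG10 went from 60.4 to 70.5 (0.22) and TPBG from 1380 to 1321 (-0.06). By brightest probe set, 18 of 19 relatives of the members in the HMG, PLAG, CDC25, E2F and OTU families passed the filter. Of the 18, 12 were above 0 (47.4% over all genes past the filter), with a median of 0.08. None was at least 1.5-fold higher, against 4.18% of all genes past the filter, or lower, against 7.34%. The OTU gene VCPIP1, outside the naming rule and named after its values were seen, was at -0.27 at its brightest probe set. Its other probe sets past the filter, all dimmer, were at 1.43, 0.78 and 0.35. CDC25B, which drives mitotic entry, went from 3172 to 4301 (0.44), and E2F3, an activator of S phase genes, from 1250 to 1623 (0.38). HMGN1 and HMGN5, nucleosome-binding proteins of another HMG class, were at -0.25 and -0.18.

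**Figure D4:**
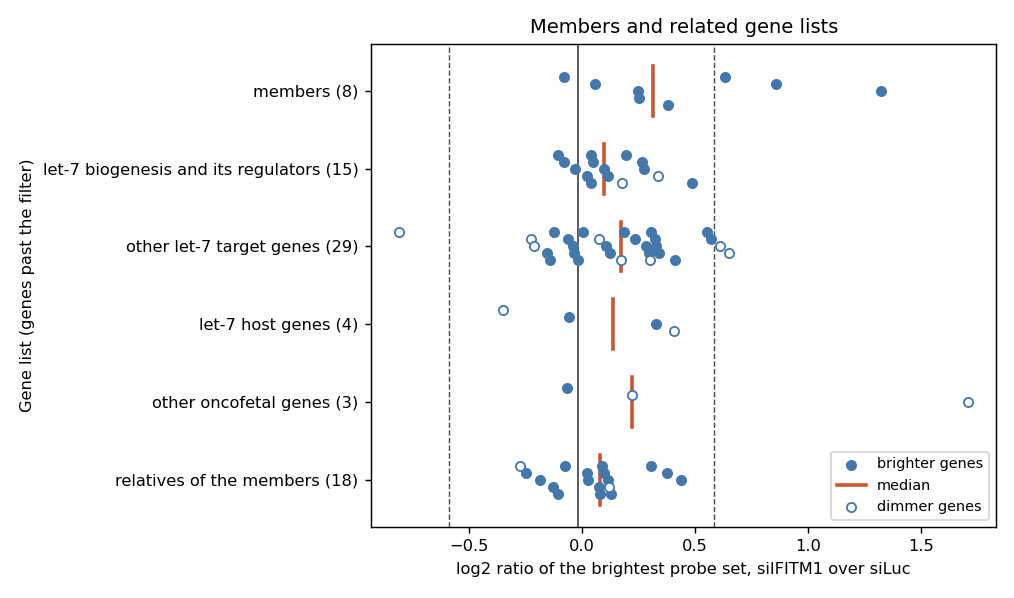
Log2 ratio of the brightest probe set for each gene past the filter, by list (number of genes in brackets), with filled points for brighter genes, open points for dimmer genes and the list median in orange. The solid line is the median of all genes (-0.02) and dashed lines mark 1.5-fold. YOD1, HMGA2 and CDC25A are the 3 members beyond the right dashed line, and the lists of let-7 regulators and relatives stay between both lines.

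The promoter windows of YOD1 and CDC25A, the members at least 1.5-fold higher for which a window was at hand, are printed to show what lies at their starts. Each runs from 250 bases before to 50 after the start in RefSeq (GRCh38.p14), 5′ to 3′ along the gene, with motif matches in capitals. YOD1 lies at chr1:207051159-207051458 and CDC25A at chr3:48188368-48188667, both on the minus strand.
YOD1: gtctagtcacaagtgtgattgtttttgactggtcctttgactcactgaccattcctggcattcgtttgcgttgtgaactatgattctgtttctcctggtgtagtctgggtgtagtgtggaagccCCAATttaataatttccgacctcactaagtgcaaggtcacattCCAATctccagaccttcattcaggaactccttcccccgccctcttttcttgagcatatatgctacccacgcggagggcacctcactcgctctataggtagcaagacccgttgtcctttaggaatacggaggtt
CDC25A: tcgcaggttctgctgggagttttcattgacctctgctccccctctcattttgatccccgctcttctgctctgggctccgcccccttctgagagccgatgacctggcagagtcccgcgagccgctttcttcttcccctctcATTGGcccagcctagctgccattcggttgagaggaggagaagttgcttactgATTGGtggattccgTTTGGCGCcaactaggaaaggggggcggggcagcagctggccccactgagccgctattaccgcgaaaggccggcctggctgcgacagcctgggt
The motifs searched on both strands were CCAAT, the TATA sequence TATAAA and the E2F forms TTTCGCGC, TTTGGCGC and TTTCCCGC. CCAAT occurred at 2 places in YOD1 and at 2 in CDC25A, and 34.6% of 35116 windows held it. CDC25A also held TTTGGCGC, an E2F form found with the other forms in 2.74% of windows, and no capital stretches overlap. TATAAA was in neither and in 11.5% of all windows. Windows were found for 7 members, and those of HMGA2, IGF2BP1 and E2F5 were not used here. A match says only that these letters are present.

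Facts of the whole pair of arrays bear on these values as follows. The targeted gene, IFITM1, went from 640 to 237, or 37.1% of the baseline. That is the only probe set annotated to IFITM1 alone, and its ID carries an ending for shared probes. Each array held 54675 probe sets, and their mean signal after 2% was removed at each end was 500.1 on both. Of 8 markers of colon epithelium 7 passed the filter, and the summed signal of these 7 was 134588 with siLuc and 139694 with siIFITM1, although the intestinal factor CDX2 was below the filter at 5.87 and 19.1. By brightest probe set 3 of the 7 were above 0 and 4 below, against 47.4% above 0 over all genes past the filter. Their median log2 ratio was -0.01, with KRT20 at 0.36 and CDH1 at 0.27 the highest. Of 5 leukocyte and blood markers 3 passed (summed signal of the 3, 631 and 503), with the pan-leukocyte gene PTPRC below the filter at 13.7 and 49.3. CD79A (from 306 to 177) and CD14 (from 232 to 185) were lower, while HBB (from 93.1 to 141) was higher. Of 6 fibroblast and endothelial markers 4 passed (summed signal of the 4, 680 and 795), with COL3A1 and VWF below it. LUM went from 132 to 386, while COL1A1 (from 323 to 230), DCN (from 74.9 to 52.7) and PECAM1 (from 150 to 126) were lower. Each of these 4 genes had only 1 probe set past the filter, of 5 for COL1A1, 7 for DCN, 5 for PECAM1 and 2 for LUM. The part of all these markers in the members' ratios was not tested. Both samples are of 1 cell line, HT-29. In bulk RNA, fewer cells that express a gene and less RNA per cell cannot be told apart.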

How the data were processed

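Total RNA of 2 HT-29 samples, 1 per siRNA, was column purified, amplified and labelled with biotin, per the labels' protocols. The deposited values are intensities on a linear scale. They come from MAS5 according to the submitters' processing notes, which name no version. Precision is limited by the number of arrays. A probe table named 1 gene for 41091 of 54613 probe sets that are not controls, and 41037 of these (99.9%) had their symbol updated through RefSeq (GRCh38.p14). Signals were taken to log2 with no further scaling. A gene's brightest probe set represented it, and the filter left 12225 of 19775 genes, 7793 of them brighter.

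The members and lists were chosen with earlier results of these data known. Named genes were all members, IFITM1 and, from each list, up to 4 genes past the filter with the largest absolute ratio whose other probe sets past the filter had the same sign. Lists of 9 or fewer genes could be named in full. The second brightest probe set was an alternative added once the data had been seen. Scripts were tested on simulated data. Python 3.11.15, numpy 2.4.6, pandas 2.3.3, statsmodels 0.14.6 and matplotlib 3.10.9 were used.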

Additional observations from a re-analysis of the deposited data

How the results depend on the processing

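With 1 array per siRNA there is no replicate to leave out, and no paired analysis was possible because each group has 1 sample. Median centring, quantile normalization, subtraction of a loess trend (span 0.3) and a pseudocount of 32 left each of the 8 members past the filter on its side of 0 and of the 1.5-fold line. Values moved mainly with the probe set chosen. The mean over probe sets gave -0.1473 for HMGA2, which reversed its sign, 0.1913 for CDC25A, 0.1234 for E2F5 and 0.9237 for YOD1, with 1 member at least 1.5-fold and 0 at least 2-fold higher. The second brightest probe set gave -0.4794 for HMGA2 and -0.6751 for CDC25A, both reversed, -0.1332 for E2F5, 0.1921 for HMGA1, 0.4623 for IGF2BP2 and 0.5215 for YOD1. Without probe sets marked for shared probes HMGA2 reversed to -0.4794 and IGF2BP3 was at -0.7638. Of the 5 members left 3 were above 0 and 1, IGF2BP3, was at least 1.5-fold lower. That value rests on 1569033_at alone, whose siIFITM1 signal of 55.3 was under the filter floor. With no filter 2 members were at least 2-fold higher, the second being IGF2BP1 with both signals below the filter floor. At the 75th percentile 1 of the 2 members with several probe sets had them in 1 direction. Except for that filter, shares over all genes were not computed under these settings. Nothing is therefore read from the counts here or in the lists below.

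Among the lists, the other let-7 targets at least 1.5-fold higher numbered 4 after median centring, 1 with the mean over probe sets and 0 with the pseudocount or the stricter filter, against 2. Those at least 1.5-fold lower numbered 4 with no filter and 0 with the pseudocount, the mean over probe sets, the stricter filter or without shared probes, against 1. With no filter 1 regulator of let-7 and 2 other oncofetal genes were at least 1.5-fold higher, and 2 oncofetal genes and 1 relative of a member were at least 1.5-fold lower. The stricter filter left 0 oncofetal genes higher, against 1. Where a stricter filter or fewer probe sets gave the lower count, fewer genes were measured. For the rest the cause was not tested.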
